A study of Mus musculus with 12 samples.

Results

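The 9 genes described here are Atf4 and 8 genes of the ATF4 arm of the integrated stress response (Atf5, Ddit3, Ddit4, Trib3, Asns, Chac1, Sesn2, and Slc7a11), and all 9 were found by name among the 25078 genes of the count table. They were measured by RNA-Seq in donor T cells from the liver of mice on day 6 after hematopoietic cell transplantation (HCT), in an experiment on how STAT3 and PD-1 in donor T cells shape graft-versus-host disease. The 12 libraries comprise CD4+ and CD8+ T cells of 3 donor genotypes, as 6 groups of 2 libraries. Each library was made from the cells of 3 recipients, so replicates are pools of mice and p-values measure the spread between pools.

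All donors were C57BL/6 mice. All recipients were lethally irradiated WT BALB/c mice that also received T cell-depleted bone marrow from WT C57BL/6 donors. The donor genotypes are labelled WT, STAT3ko, and STAT3ko PD-1ko. In STAT3ko donors, floxed Stat3 is deleted by Cre under the Cd4 promoter, which is active while T cells mature, so CD4+ and CD8+ T cells both lose it. STAT3ko PD-1ko donors came from crossing these mice with PD-1-/- mice, which lack PD-1 in every cell from birth. No group lacked PD-1 alone, so each PD-1 comparison was made on the STAT3ko background. The age of the mice was not given in the sources used here. Donor cells were sorted by the donor MHC molecule H-2Kb, the T cell receptor, and CD4 or CD8. Libraries held 21676125 to 24551477 counts on genes, with a median of 23442480.

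In the integrated stress response, kinases that sense amino acid lack, unfolded protein in the endoplasmic reticulum (ER), double-stranded RNA, or heme lack phosphorylate the translation factor eIF2. General translation then slows, while the Atf4 mRNA is translated better because of short upstream reading frames, so ATF4 is controlled to a large part at the protein level and its mRNA is an incomplete readout. ATF4 binds DNA with C/EBP partners and activates genes for amino acid synthesis, uptake, and tRNA charging, along with stress regulators such as Ddit3, Trib3, and Chac1. In activated T cells, several of the amino acid genes are also driven by MYC and mTORC1 during growth.

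The targeted genes and cell type markers were checked first. Levels are given as CPM, the count of a gene relative to the library's size after scaling by the trimmed mean of M values (TMM). Stat3 was at 417.8 ± 69.6 CPM in WT CD4+, 151.9 ± 17.1 in STAT3ko CD4+, and 187.9 ± 43.9 in STAT3ko PD-1ko CD4+ T cells (mean ± SD, n = 2). The CD8+ libraries had 390.7 ± 9.01, 142.2 ± 9.39, and 194.4 ± 57.5 CPM of Stat3 in the same order. Pdcd1, which encodes PD-1, was at 240.9 ± 8.05, 292 ± 43.4, and 40.57 ± 20.6 CPM in CD4+, and at 341.7 ± 48.5, 439.2 ± 21.4, and 79.56 ± 19.8 CPM in CD8+ T cells. Both genes were thus low in the groups labelled as lacking them, with no overlap with WT, although neither fell to 0. By the test, Stat3 was lower in STAT3ko PD-1ko than in WT (adjusted p = 0.018 in CD4+ and 0.0177 in CD8+ T cells), while in STAT3ko the estimates of -1.46 (log2) in both subsets missed the threshold (adjusted p = 0.055 and 0.108). Pdcd1 fell against WT by 2.55 and 2.09 on the log2 scale (adjusted p = 0.00566 and 0.00243). Counts over a whole gene can include reads from exons that a deletion leaves in place.

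The sort on the T cell receptor should remove other cell types. The 11 T cell markers were all detected in every library and summed to 5640 to 8370 CPM, led by Thy1. The 12 hepatocyte markers summed to 1.51 to 5.71 CPM, led by Trf, and Apoc3 and Serpina1a were each at 0 in 11 libraries. The 11 macrophage and Kupffer cell markers summed to 7.49 to 40.3 CPM, of which Cd68 made 5.93 to 29.1. B cell markers (5 genes, led by Cd79b) summed to 1.63 to 14.7 CPM with Ms4a1 at 0 in every library. Markers of neutrophils (8 genes), endothelial and stellate cells (9 genes), and erythroid cells (6 genes, globins at 0) stayed at or under 1.4, 3.68, and 0.563 CPM. In these bulk samples, fewer cells that express a gene and less of its RNA per cell cannot be told apart.

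The 9 genes covered a wide range of levels in these T cells. Per kilobase of exon, the scale on which levels of the 9 genes are compared with each other, the mean over the 12 libraries was 160 CPM for Atf4 and 86.6 for Ddit4, the mTORC1 inhibitor REDD1. Ddit3, which encodes the transcription factor CHOP, was at 17.6 CPM per kilobase, Asns, asparagine synthetase, at 11.2, and Sesn2, a leucine sensor upstream of mTORC1, at 6.11. Atf5, a transcription factor related to ATF4, was at 3.10 and Trib3, a pseudokinase, at 1.01. Chac1, which degrades glutathione, was at 0.176 and Slc7a11, the cystine-glutamate exchanger, at 0.0019. Atf4 stood at the 97.5th percentile of tested genes, Asns at the 52.7th, and Chac1 at the 5.8th.

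Neighbors in this order did not all separate. Libraries ranged from 109 to 241 CPM per kilobase for Atf4 and from 54.9 to 162 for Ddit4, from 5.01 to 38.5 for Ddit3, and from 2.61 to 32 for Asns. The ranges of Ddit4 and Atf4 overlapped, as did those of Ddit3, Asns, and Sesn2 (4.21 to 8.17), and the range of Atf5 lay within that of Asns. Among the lower genes, Atf5 (2.83 to 3.49), Trib3 (0.647 to 1.41), Chac1 (0.0521 to 0.312), and Slc7a11 (0 to 0.00958) did not overlap each other. Among libraries, Asns varied most of the 8 genes with counts in every library (12.3-fold from the lowest to the highest), followed by Ddit3 (7.67-fold), and Atf5 varied least (1.23-fold).

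**Figure D1:**
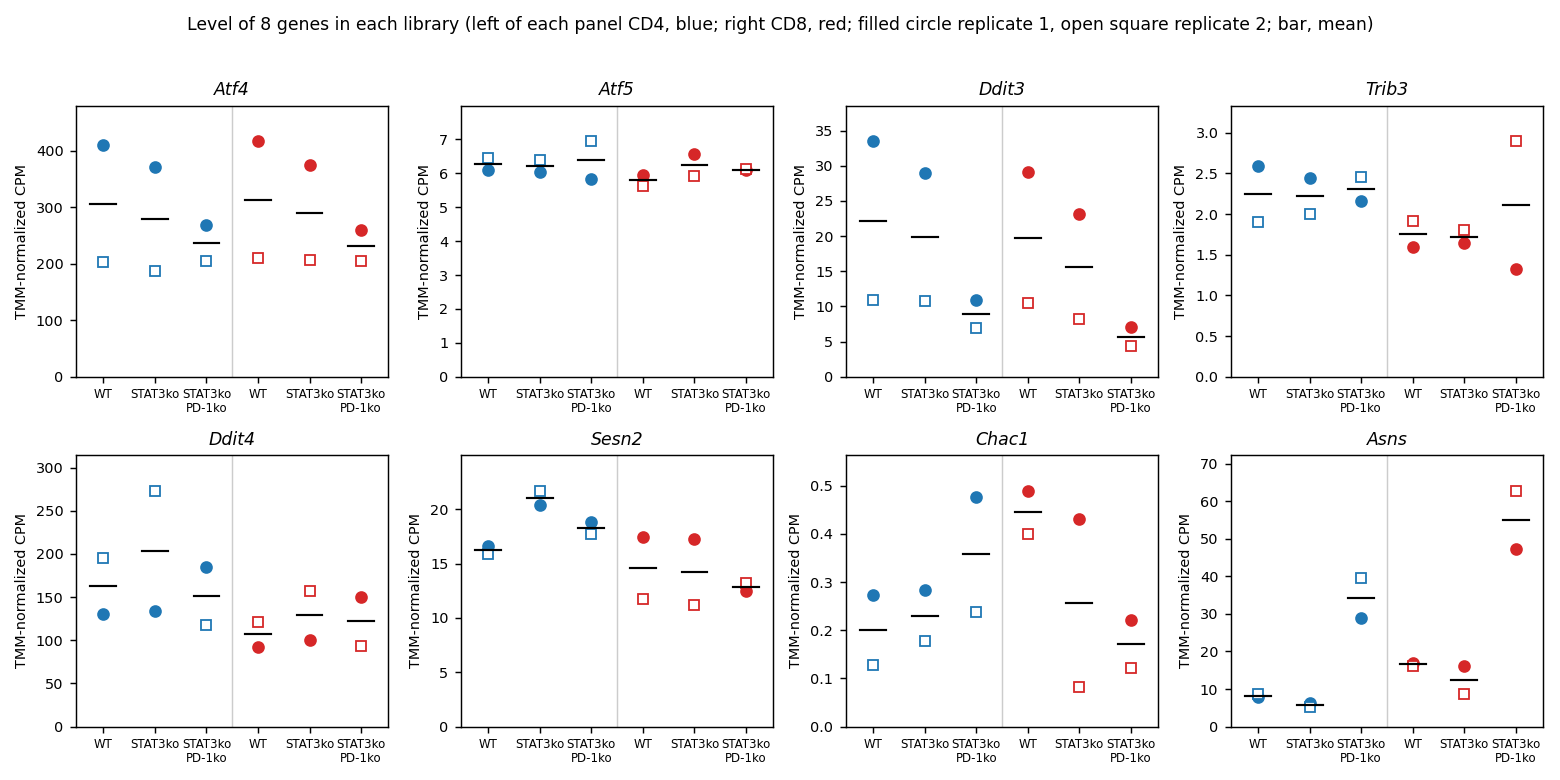
TMM-normalized CPM (vertical axis, linear and from 0) of 8 of the 9 genes in each of the 12 libraries, by genotype in CD4+ (blue) and CD8+ (red) T cells, with circles for replicate 1, squares for replicate 2, and a bar for the mean. Asns is highest in the 4 STAT3ko PD-1ko libraries (28.9 to 62.8 CPM), while Atf4 and Ddit3 separate by replicate, with replicate 1 above replicate 2 in all 6 groups.

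The gene of the 9 that separated STAT3ko PD-1ko T cells from both other genotypes in both subsets was Asns (chr6:7675165-7693209, minus strand, mm10). It makes asparagine from aspartate and glutamine. Its promoter is shown because Asns is a textbook ATF4 target through a C/EBP-ATF response element. The motif TGATGNAA was searched for on both strands in RefSeq windows from 250 bases before to 50 bases after each gene's start (build GRCm38.p6, the assembly also called mm10). All 9 genes had a window, and Atf5 had a pair with different starts. The motif was in the windows of Asns, Chac1, Slc7a11, and Trib3, that is in 4 of 10 windows, and in 3.97% of all 32851 windows. The same motif with C in place of N, a subset of these matches, was in 0.895% of all windows and in those of Chac1 and Slc7a11. The stretches around the matches follow, 5′ to 3′ along the gene's strand, with the match in capitals. TTGCATCA and TTACATCA are the motif read from the opposite strand.
Asns (chr6:7693210-7693252, minus strand): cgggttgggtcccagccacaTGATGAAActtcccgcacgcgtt
Chac1 (chr2:119351029-119351076, plus strand): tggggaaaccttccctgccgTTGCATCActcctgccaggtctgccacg
Slc7a11 (chr3:50443633-50443699, minus strand): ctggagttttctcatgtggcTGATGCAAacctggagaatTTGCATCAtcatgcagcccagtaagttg
Trib3 (chr2:152344029-152344056, minus strand): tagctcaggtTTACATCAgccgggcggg

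The Asns match lies 23 to 16 bases before the start, the Chac1 match 193 to 186 bases before it, and the Slc7a11 matches 66 to 59 and 47 to 40 bases before it. The Trib3 match lies at bases 15 to 22 of the transcript. A match is a description of these letters and not evidence of binding. Of the 4 genes that carry it, only Asns passed the test between genotypes, while Trib3 did not pass the test and Chac1 and Slc7a11 were too low to be tested by genotype.

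In CD4+ T cells, Asns was at 7.87 and 8.55 CPM in the WT libraries, at 6.22 and 5.11 in the STAT3ko libraries, and at 28.9 and 39.7 in the STAT3ko PD-1ko libraries. The CD8+ libraries had 17.0 and 16.2 CPM in WT, 16.2 and 8.55 in STAT3ko, and 47.2 and 62.8 in STAT3ko PD-1ko. The STAT3ko PD-1ko libraries lay above all others of their subset, with a wide gap. The raw counts behind these levels were 115 to 406 in WT and STAT3ko libraries and 667 to 1539 in STAT3ko PD-1ko libraries.

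Relative to WT, Asns rose 4.24-fold in STAT3ko PD-1ko CD4+ T cells (log2 fold change 2.08, SE 0.23, adjusted p = 0.00414 edgeR quasi-likelihood F test, Benjamini-Hochberg over all genes). The rise in CD8+ T cells was 3.33-fold (log2 1.74, SE 0.29, adjusted p = 0.0111). Relative to STAT3ko, the rise was 6.13-fold in CD4+ (log2 2.62, SE 0.24, adjusted p = 0.00374) and 4.5-fold in CD8+ T cells (log2 2.17, SE 0.29, adjusted p = 0.00766). These comparisons share the STAT3ko PD-1ko libraries, and the values stand side by side rather than as independent evidence. Within replicate 1 and replicate 2 taken separately, the log2 difference from WT was 1.86 and 2.2 in CD4+ and 1.47 and 1.95 in CD8+ T cells.

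The difference between the subsets in the rise from WT was -0.34 on the log2 scale (CD8 minus CD4, 95% interval -1.21 to 0.54, adjusted p = 1), and 0 of 8 tested genes were called for it by edgeR, beside 0.00811% of all genes. None of the 8 had an unadjusted p under 0.05 for it. Asns was not called in STAT3ko against WT (log2 -0.53, SE 0.23, adjusted p = 0.489 in CD4+ and -0.43, SE 0.29, adjusted p = 0.647 in CD8+ T cells). The STAT3ko libraries nonetheless lay below the WT libraries in both subsets, in CD8+ T cells by a narrow margin (16.18 against 16.22 CPM). The 95% intervals were -1.08 to 0.01 in CD4+ and -1.11 to 0.25 in CD8+ T cells, so Asns is not shown to be unchanged. Without the STAT3ko PD-1ko replicate 2 library of the subset, the Asns calls were lost at similar sizes, with log2 1.82 and adjusted p = 0.0515 against WT CD4+ and 1.51 and 0.0905 against WT CD8+ T cells. Against STAT3ko they were then 2.36 and 0.0701 in CD4+ and 1.93 and 0.0813 in CD8+ T cells. The summed macrophage markers were lower in STAT3ko PD-1ko CD8+ libraries (17.9 and 19.4 CPM) than in WT (30.2 and 40.3). Cd68 alone made 16.9 and 18.3 CPM of the STAT3ko PD-1ko sums and 29.1 and 28.9 of the WT sums. In replicate 1 the difference thus lay almost wholly in this single gene. Hepatocyte markers were at 3.54 and 5.71 against 1.91 and 4.59 CPM. In CD4+ libraries the macrophage sums were 9.69 and 12.1 against 9.59 and 20.7 CPM and the hepatocyte sums 2.34 and 4.84 against 2.09 and 4.15 CPM. B cell markers summed to 6.1 and 5.31 CPM in STAT3ko PD-1ko CD8+ libraries against 14.7 and 10.7 in WT. Cd79b made nearly all of these sums (5.92 and 5.1 against 14.5 and 10.6 CPM) and was 2.27-fold lower (adjusted p = 0.0149 by edgeR). Of the 11 T cell markers, 6 fell in STAT3ko PD-1ko CD8+ T cells, led by Cd8a (2.12-fold lower), and 2 fell in CD4+ T cells, Cd2 and Cd4 (1.44-fold and 1.43-fold lower). The part of these markers in the Asns difference was not tested.

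No other of the 9 genes passed the test between genotypes, except Ddit3 under alternatives given with its values. Of the 7 genes tested, 1 was called in STAT3ko PD-1ko against WT in CD4+ T cells, where 12.9% of all 11959 tested genes were called (7.21% higher and 5.65% lower), and 1 in CD8+ T cells, where 17.2% of 12002 were called (9.01% higher and 8.21% lower). Against STAT3ko, 1 of 7 was called in each subset, beside 11.1% (CD4+) and 16.8% (CD8+ T cells) of all genes. Thus the share of called genes among the 7 is near that of all genes. In STAT3ko against WT, 0 of 7 were called by edgeR, and 0 had an unadjusted p under 0.05, beside 0.334% of all genes called in CD4+ and 0.0583% in CD8+ T cells. DESeq2 also called 0 of the 7 there. For a single gene, the smallest 2-sided p that exact permutation of 2 against 2 libraries can reach is 0.333, so no such test is given.

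**Figure D2:**
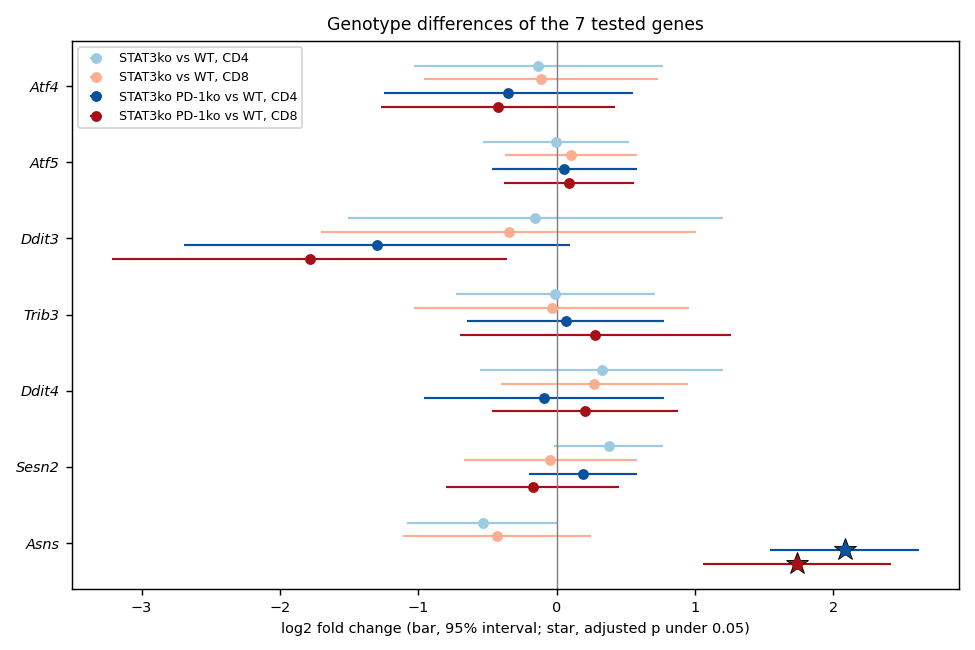
Log2 fold change against WT (horizontal axis) of the 7 genes tested, for STAT3ko (pale) and STAT3ko PD-1ko (dark) in CD4+ (blue) and CD8+ (red) T cells, with 95% intervals from the edgeR fit and stars for an adjusted p under 0.05. Asns carries the 2 stars, at 2.08 and 1.74, and the interval of Ddit3 in CD8+ T cells reaches from -3.21 to -0.36.

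Ddit3 (chr10:127290793-127296288, plus strand) had the next largest estimates, in the opposite direction. In CD4+ T cells, it was at 33.5 and 10.9 CPM in the WT libraries (replicate 1 and 2), at 29.0 and 10.8 in STAT3ko, and at 10.9 and 6.91 in STAT3ko PD-1ko. Its CD8+ levels were 29.1 and 10.5 in WT, 23.1 and 8.22 in STAT3ko, and 7.03 and 4.37 in STAT3ko PD-1ko. The STAT3ko PD-1ko libraries lay below the WT libraries in both subsets and below the STAT3ko libraries in CD8+ T cells. In CD4+ T cells they overlapped the STAT3ko libraries, and WT replicate 2 (10.92 CPM) and STAT3ko PD-1ko replicate 1 (10.86 CPM) were nearly equal.

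The log2 fold change of Ddit3 against WT was -1.30 (SE 0.60, adjusted p = 0.205) in CD4+ and -1.78 (SE 0.61, adjusted p = 0.0848) in CD8+ T cells. Against STAT3ko it was -1.14 (SE 0.60, adjusted p = 0.249) and -1.44 (SE 0.60, adjusted p = 0.14). Within replicate 1 and replicate 2 the log2 difference from WT was -1.62 and -0.65 in CD4+ and -2.04 and -1.25 in CD8+ T cells. Ddit3 was thus lower in STAT3ko PD-1ko within each replicate number and subset, and the gap between the replicates of WT, or of STAT3ko, was of similar size to the genotype difference. Without STAT3ko CD8+ replicate 1, STAT3ko CD8+ replicate 2, or WT CD8+ replicate 2, Ddit3 was called in CD8+ T cells against WT (adjusted p = 0.026, 0.0249, and 0.0444). A fit with the replicate number as a block called it against WT (log2 -1.13, adjusted p = 0.0124 in CD4+ and -1.66, adjusted p = 0.0065 in CD8+ T cells) and against STAT3ko (-1.01, adjusted p = 0.021 and -1.31, adjusted p = 0.0131). In CD8+ T cells it was also called with no filter on low counts (against WT, adjusted p = 0.017, and against STAT3ko, adjusted p = 0.047) and with only the 4 compared libraries in the fit (against WT, adjusted p = 0.0259). The supplement of the study speaks of batches of pooled mice for its T cell receptor sequencing, and whether a replicate number of these libraries marks such a batch was not stated. Ddit3 overlaps the gene Mars on the opposite strand by 68 bases, and the strand setting of the counting was not stated, so a few of its reads could come from Mars.

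Atf4 itself (chr15:80255184-80257545, plus strand) showed no genotype difference beyond the spread. In CD4+ T cells it was at 409.9 and 203.3 CPM in WT, 370.7 and 187.8 in STAT3ko, and 269 and 204.5 in STAT3ko PD-1ko. The CD8+ levels were 417.4 and 210.4 CPM in WT, 374.5 and 206.9 in STAT3ko, and 260.3 and 204.4 in STAT3ko PD-1ko. All 6 replicate 2 libraries sat within 187.8 to 210.4 CPM, whatever the genotype, whereas replicate 1 libraries spread from 260.3 to 417.4 CPM with the STAT3ko PD-1ko libraries lowest. The log2 fold change against WT was -0.35 (95% interval -1.25 to 0.55, adjusted p = 0.602) in CD4+ and -0.42 (-1.27 to 0.42, adjusted p = 0.459) in CD8+ T cells.

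The effectors of mTORC1 restraint did not pass the test either. Ddit4 (chr10:59949675-59951770, minus strand) was at 130.1 and 195.2 CPM in WT CD4+, 133.7 and 273.1 in STAT3ko CD4+, and 184.8 and 117.1 in STAT3ko PD-1ko CD4+ T cells. Among CD8+ libraries it was at 92.6 and 121 in WT, 100.8 and 157.2 in STAT3ko, and 150.6 and 93.9 in STAT3ko PD-1ko. The groups overlapped in each subset, and the order of the replicates turned around in STAT3ko PD-1ko. Its log2 fold change in STAT3ko PD-1ko against WT was -0.09 (95% interval -0.96 to 0.78) in CD4+ and 0.20 (-0.47 to 0.88) in CD8+ T cells. Sesn2 (chr4:132492807-132510456, minus strand) was at 16.6 and 15.9 CPM in WT CD4+, 20.4 and 21.7 in STAT3ko CD4+, and 18.8 and 17.7 in STAT3ko PD-1ko CD4+ T cells, without overlap between the groups. The difference between STAT3ko and WT was 0.38 (log2, SE 0.17, adjusted p = 0.499), and in CD8+ T cells, where the libraries ranged from 11.2 to 17.5 CPM, it was -0.04 (SE 0.27, adjusted p = 0.977).

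Atf5 and Trib3 passed no test between genotypes. Atf5 (chr7:44812256-44816658, minus strand) stayed between 5.63 and 6.95 CPM in all 12 libraries, on 128 to 175 counts, and its log2 fold change in STAT3ko PD-1ko against WT was 0.05 (95% interval -0.47 to 0.58) in CD4+ and 0.09 (-0.38 to 0.56) in CD8+ T cells. Atf5 overlaps the genes Nup62 and Il4i1b on the opposite strand, by 571 bases at most. Trib3 (chr2:152337425-152344060, minus strand) rested on 30 to 71 counts and had log2 fold changes of 0.07 (95% interval -0.65 to 0.78) and 0.28 (-0.70 to 1.26), with CD8+ differences of -0.26 within replicate 1 and 0.58 within replicate 2. Intervals this wide do not show these genes to be unchanged.

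Chac1 (chr2:119351242-119354327, plus strand) had 2 to 11 counts per library and did not pass the filter on low counts within a subset, so it has no genotype test. Its levels lay between 0.0818 and 0.489 CPM, near the floor of 0.119 to 0.141 CPM that 3 counts stand for. Slc7a11 (chr3:50364936-50443613, minus strand) had no count in any CD4+ library, 1 count in WT CD8+ replicate 2, and 2 counts in each STAT3ko PD-1ko CD8+ library. It was not detectable as expressed at this depth, where a count of 0 allows up to 0.119 to 0.141 CPM (counting error only), and no fold is given.

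Between the subsets, Asns was higher in CD8+ than in CD4+ T cells. The log2 difference was 1.02 (SE 0.29, adjusted p = 0.0486) in WT, 1.13 (SE 0.29, adjusted p = 0.0382) in STAT3ko, and 0.68 (SE 0.27, adjusted p = 0.263) in STAT3ko PD-1ko T cells, in a fit of all 12 libraries. Asns was thus called in WT and STAT3ko, as 1 of 8 genes tested beside 10.5% and 9.62% of all 12334 genes, and 0 of 8 were called in STAT3ko PD-1ko beside 4.14%. The CD8+ libraries exceeded the CD4+ ones in all 3 genotypes without overlap. Both calls lie close to the threshold, and each rests on single libraries. In WT the call held without either STAT3ko CD8+ library and was lost without any of the other 10 (log2 0.96 to 1.07, adjusted p up to 0.181). In STAT3ko it was lost without any of the 4 WT libraries, either STAT3ko CD4+ library, or STAT3ko CD8+ replicate 1, the last giving log2 0.6 and adjusted p = 0.323.

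The legend of a supplemental figure of the study states that the CD8+ T cells came from the same livers as the CD4+ T cells, so the subsets share animals, which this fit does not use. Deviations of same-numbered CD4+ and CD8+ libraries from their group means correlated across genes at r = 0.59 in WT, 0.58 in STAT3ko, and 0.65 in STAT3ko PD-1ko, although no source ties a number to animals. A fit that paired them, as a block by genotype and replicate number, called 2, 4, and 2 of 8 genes in these genotypes. The paired fit also called many more of all genes, with counts given under the dependence on processing. The calls among the 8 are therefore not read as a result about these genes as a group. It called Asns higher in CD8+ T cells in all 3 (log2 1.02, 1.08, and 0.69, adjusted p = 0.00168, 0.00197, and 0.00955). Ddit4 was called lower in WT (-0.59, adjusted p = 0.00464) and STAT3ko (-0.60, adjusted p = 0.00449), Sesn2 in STAT3ko (-0.59, adjusted p = 0.048), and Ddit3 in STAT3ko (-0.35, adjusted p = 0.0418) and STAT3ko PD-1ko (-0.64, adjusted p = 0.00957). Without the pairing, Ddit4 had log2 differences of -0.61 (adjusted p = 0.423) in WT, -0.66 (adjusted p = 0.375) in STAT3ko, and -0.30 (adjusted p = 0.834) in STAT3ko PD-1ko, none called. Sesn2 was at -0.15 (adjusted p = 0.79) in WT, -0.57 (adjusted p = 0.175) in STAT3ko, and -0.51 (adjusted p = 0.345) in STAT3ko PD-1ko T cells. Ddit3 was at -0.17 (adjusted p = 0.938), -0.34 (adjusted p = 0.851), and -0.64 (adjusted p = 0.803). For Atf4 and Ddit3 the libraries of both subsets overlapped in all 3 genotypes.

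Atf4 and Ddit3 also differed between replicate numbers. The leading numbers in the library titles form a separate range for each replicate number, and the labels do not say what they mark. The supplement of the study speaks of batches of pooled mice for its T cell receptor sequencing of sorted cells. Whether replicates 1 and 2 here are those batches was not stated. With genotype and subset in the model, Ddit3 was 2.38-fold lower in replicate 2 than in replicate 1 (log2 -1.25, SE 0.14, adjusted p = 6.18e-04) and Atf4 was 1.7-fold lower (log2 -0.76, SE 0.10, adjusted p = 0.00131). Both were lower in replicate 2 in 6 of 6 groups. They were 2 of 8 genes tested, beside 14.1% of all genes called, 7.03% higher and 7.02% lower. Because CD4+ and CD8+ T cells came from the same livers, the 12 libraries are not all independent. Within the 6 CD8+ libraries alone, the differences were -1.23 (adjusted p = 0.0724) and -0.72 (adjusted p = 0.0943), and neither was called.

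By group, replicate 1 exceeded replicate 2 in Ddit3 3.05-fold in WT CD4+, 2.68-fold in STAT3ko CD4+, 2.75-fold in WT CD8+, and 2.79-fold in STAT3ko CD8+ T cells. In STAT3ko PD-1ko T cells the ratio was 1.57 in CD4+ and 1.6 in CD8+. Atf4 had ratios of 1.81 to 2.02 in the 4 WT and STAT3ko groups and of 1.32 and 1.27 in STAT3ko PD-1ko CD4+ and CD8+ T cells. The ratio was smaller in STAT3ko PD-1ko T cells for both genes and both subsets, a difference that was not tested. Chac1 was also lower in replicate 2 in 6 of 6 groups (log2 -0.93, SE 0.33, adjusted p = 0.0865) on its few counts. Asns (-0.02), Atf5 (0.03), Trib3 (0.15), Sesn2 (-0.20), and Ddit4 (0.22) had small differences, none called.

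**Figure D3:**
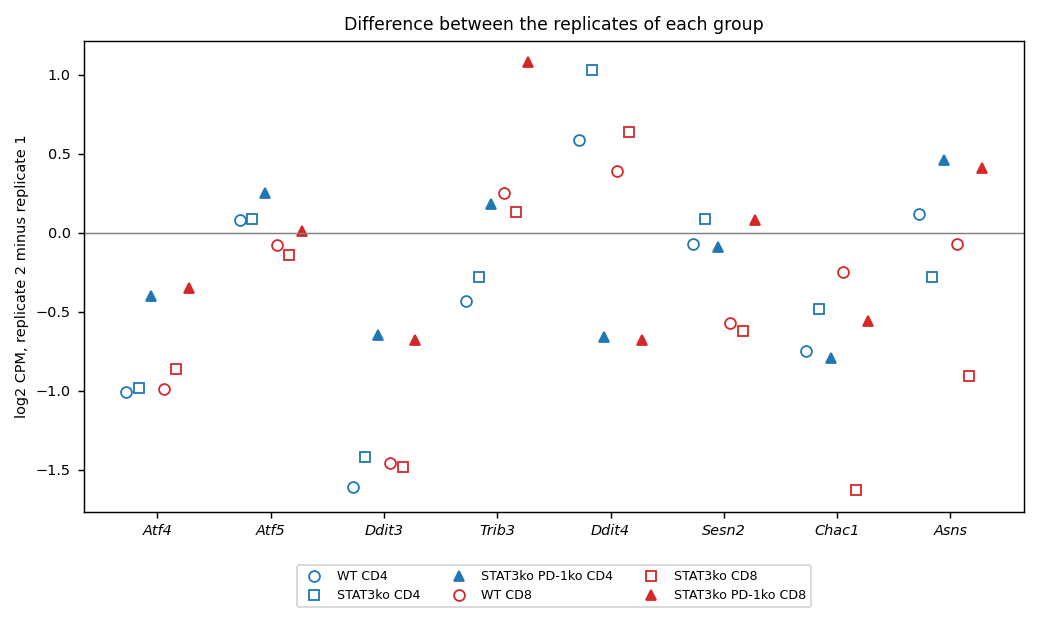
Log2 CPM of replicate 2 minus replicate 1 (vertical axis) for 8 genes in each of the 6 groups, with circles for WT, squares for STAT3ko, filled triangles for STAT3ko PD-1ko, blue for CD4+ and red for CD8+ T cells. All 6 points of Atf4, Ddit3, and Chac1 lie below 0, and for Atf4 and Ddit3 the STAT3ko PD-1ko triangles lie nearest to 0.

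Across the 12 libraries, Atf4 and Ddit3 varied together (Pearson r = 0.87 of log2 CPM). After subtraction of each group's mean, which leaves only the difference between replicates, r was 1.00. Both values are descriptions over libraries that share the replicate split. The genes most like Atf4 over the 12 libraries were Ing3 (r = 0.985), Slc38a2 (0.983), which encodes an amino acid transporter, and Irf4 (0.982), a transcription factor induced by T cell receptor signals. Those most like Ddit3 were C920009B18Rik (0.982), Trp53inp2 (0.98), and Smad7 (0.976). Those most like Asns were Pus7 (0.993), Bcat1 (0.989), a branched-chain amino acid transaminase, and Ddx1 (0.985). For Ddit4 the highest value was 0.941 (Dcp2), for Sesn2 0.934 (Zxda), and for Chac1, Trib3, and Atf5 0.858, 0.856, and 0.852.

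Other genes of the pathway were read against the same 7.03% of all genes that rose and 7.02% that fell in replicate 2, and those named here were chosen after their values were seen. Of 5 tested bZIP partners of ATF4, 2 fell in replicate 2: Atf3 (log2 -4.63, SE 0.54, adjusted p = 7.66e-04) and Cebpb (-0.98, SE 0.14, adjusted p = 0.002). Of 18 genes for eIF2 and its kinases and phosphatases, Ppp1r15a, which encodes the phosphatase subunit GADD34, fell (-2.08, SE 0.12, adjusted p = 1.27e-05) and Eif2ak4, the kinase GCN2, rose (0.31, SE 0.07, adjusted p = 0.0147). Of 15 genes in other branches of the ER stress response, 4 fell, among them Dnajb9 (-1.52, SE 0.12) and Hspa5 (-0.83, SE 0.11), an ER co-chaperone and the chaperone BiP, and 2 rose. Of 9 other targets of ATF4 and CHOP tested, 2 fell and 1 rose. Of the 8 amino acid transporters 2 fell, Slc38a2 (-0.64) and Slc3a2 (-0.88), while 0 of 10 genes of amino acid and one-carbon synthesis and 0 of 13 of tRNA charging were called by edgeR.

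The same split touched other lists. Of 5 tested glucocorticoid-induced genes, 4 fell in replicate 2, led by Dusp1 (log2 -2.24, SE 0.11), a phosphatase that is also an immediate early gene. Of the marker lists, 10 of 11 macrophage markers rose in replicate 2 (median log2 2.63), as did 4 of 5 tested hepatocyte markers (median 1.46) and 2 of 2 endothelial markers, while 0 of 11 T cell markers were called. The summed macrophage markers were 7.49 to 9.69 CPM in replicate 1 and 12.1 to 20.7 in replicate 2 of the CD4+ libraries, and 17.9 to 30.2 and 19.4 to 40.3 CPM in the CD8+ libraries. Their part in the Atf4 and Ddit3 difference was not tested. The median replicate difference of all genes was -0.01, and by exon length it went from -0.05 under 1 kb to 0.03 over 4 kb.

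Lists of ATF4 targets in amino acid metabolism were read beside Asns. Among genes of amino acid and one-carbon synthesis, 4 of 9 tested rose in STAT3ko PD-1ko CD4+ and 7 of 10 in CD8+ T cells relative to WT, and 0 fell. The median log2 fold change was 0.92 and 0.93, beside -0.01 and 0 over all genes, of which 7.21% and 9.01% were called higher. Phgdh, the first enzyme of serine synthesis, was at 19.9 and 18.5 CPM in WT CD4+ and 36.6 and 47.3 in STAT3ko PD-1ko CD4+ T cells, a 2.22-fold rise (adjusted p = 0.0106). Its CD8+ levels went from 29.9 and 28.8 to 48.9 and 55.9 CPM, a 1.8-fold rise (adjusted p = 0.00946). Shmt2, a mitochondrial serine hydroxymethyltransferase, rose 2.2-fold (adjusted p = 0.00772) and 2.01-fold (adjusted p = 0.0136), and Psat1 and Pck2 rose by 1.77-fold to 2.02-fold in both subsets.

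Of the amino acid transporters, 3 of 7 tested rose in CD4+ and 3 of 8 in CD8+ T cells, with medians of 0.49 and 0.73. Slc7a5, the light chain of the leucine transporter LAT1, was at 84.1 and 91.8 CPM in WT CD4+ and 158 and 198 in STAT3ko PD-1ko CD4+ T cells (2.06-fold, adjusted p = 0.0101). The CD8+ levels were 153 and 107 against 225 and 290 CPM (2-fold, adjusted p = 0.0476). Of 13 genes for tRNA charging, 4 rose in CD4+ and 9 in CD8+ T cells, with medians of 0.50 and 0.52. The most changed were Mars, the methionyl-tRNA synthetase (1.7-fold and 1.66-fold), Cars, the cysteinyl-tRNA synthetase (1.68-fold and 1.89-fold), and Xpot, which exports tRNA from the nucleus (1.59-fold and 1.78-fold). Without STAT3ko PD-1ko replicate 2, these 3 lists lost their calls in both subsets, while the medians stayed at 0.37 to 0.91. This alternative was chosen after the data were seen and leaves a single library in the group. Calls over all genes also varied widely when a library was left out (counts under the dependence on processing). The loss is therefore not read as a result about these lists.

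**Figure D4:**
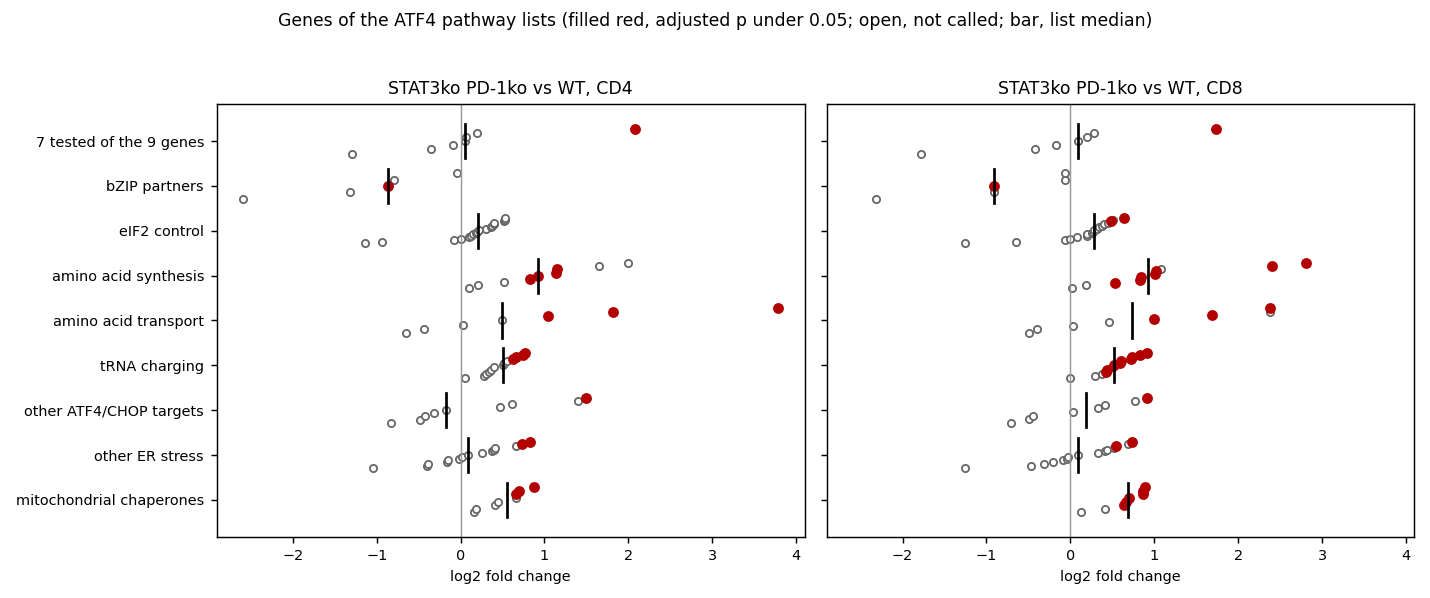
Log2 fold change of STAT3ko PD-1ko against WT (horizontal axis) for every tested gene of 9 lists in CD4+ (left) and CD8+ (right) T cells, each point a gene (filled, adjusted p under 0.05) and each bar the median of a list. The median of amino acid synthesis lies at 0.92 and 0.93, that of the 7 tested members at 0.05 and 0.09, and that of the bZIP partners at -0.87 and -0.90.

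Lists nearer to stress signaling were compared with WT in the same way. Of 9 other targets of ATF4 and CHOP tested in CD4+ and 8 in CD8+ T cells, 1 rose in each, Jdp2, a bZIP repressor. It was at 16.8 and 19.3 CPM in WT CD4+ and 53.1 and 47.4 in STAT3ko PD-1ko CD4+ T cells (2.82-fold, adjusted p = 0.00425) and rose 1.89-fold in CD8+ T cells (adjusted p = 0.00823). Of 15 genes in other branches of the ER stress response, 2 rose in each subset, Creld2 in both (1.78-fold and 1.67-fold), with Sdf2l1 in CD4+ (1.67-fold) and Hsp90b1 in CD8+ T cells (1.46-fold). The list medians were 0.09 and 0.09. Of 18 genes for eIF2 and its kinases and phosphatases, 0 were called in CD4+ by edgeR and 2 rose in CD8+ T cells, Eif2b3, a subunit of the exchange factor eIF2B (1.55-fold), and Gcn1, the activator of GCN2 (1.4-fold). With the replicate number as a block, where calls over all genes also rose, 4 of the 18 were called higher and 2 lower in CD4+ T cells. These were Eif2ak4, Eif2b3, Eif2b5, Gcn1, Impact, and Ppp1r15a. Of the 15 genes in other ER stress branches, 4 were then called higher and 2 lower.

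The 5 tested bZIP partners all had estimates below 0 in both subsets, and 1 was called, Nfe2l2, the oxidative stress factor NRF2, which was 1.83-fold lower in CD4+ (adjusted p = 0.0361) and 1.87-fold lower in CD8+ T cells (adjusted p = 0.0179). With the replicate block, 3 of the 5 were called lower in CD4+ T cells, Cebpa and Cebpb along with Nfe2l2. Mitochondrial chaperones and proteases rose in 3 of 8 genes in CD4+ and 6 of 8 in CD8+ T cells, with medians of 0.56 and 0.68, led by Hspd1 (1.84-fold and 1.85-fold), Hspa9 (1.62-fold and 1.83-fold), and Lonp1 (1.58-fold and 1.82-fold). Without STAT3ko PD-1ko replicate 2, these mitochondrial calls were lost in both subsets at medians of 0.48 and 0.62. As for the lists above, the loss is not read as a result about this list. Of 5 tested paralogs of the members, Sesn3 (2.75-fold and 1.73-fold lower) and Trib2 (1.65-fold and 1.9-fold lower) fell in both subsets.

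Lists of other stress programs were set beside these. Of 9 hypoxia-induced genes, 3 rose in CD4+ and 2 in CD8+ T cells, with Ndrg1 (3.01-fold and 2.54-fold) and lactate dehydrogenase Ldha (1.57-fold and 1.69-fold) in both. Of 8 tested p53 targets, Trp53inp1 fell in both subsets (1.83-fold and 2.23-fold lower) and 1 rose in CD4+ T cells. Of 9 targets of NRF2, 0 were called in CD4+ and 1 rose in CD8+ T cells, G6pdx of the pentose phosphate pathway (1.35-fold). Of 5 tested glucocorticoid-induced genes, 0 were called in either subset by edgeR, with medians of -0.75 and -0.50. With the replicate block, Dusp1 and Tsc22d3 of these 5 were called lower in CD4+ T cells, and Gsr of the NRF2 targets was called higher. Without STAT3ko PD-1ko replicate 2, the calls left against WT in any pathway list were Ndrg1 in both subsets and Trp53inp1 in CD8+ T cells. That fit leaves a single library in the group, so the calls lost or left are not read as a result about the lists. In STAT3ko against WT, 0 genes of any of these lists were called by edgeR in either subset.

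Relative to STAT3ko, where 6.05% of all genes rose and 5.03% fell in CD4+ T cells and 8.76% rose and 8.05% fell in CD8+ T cells, the lists held these calls. Amino acid synthesis rose in 4 of 9 and 4 of 10 genes, transport in 4 of 7 and 5 of 8, and tRNA charging in 1 of 13 and 6 of 13. Slc7a5 rose 2.86-fold and 2.42-fold and Slc7a1, an arginine and lysine transporter, 1.96-fold and 1.59-fold. Of the 18 genes for eIF2 and its kinases and phosphatases, Eif2b3 rose in CD4+ T cells (2.05-fold, adjusted p = 0.0194), and 4 rose in CD8+ T cells, led by Eif2b3 (1.85-fold), Eif2ak4 (1.8-fold), and Eif2s2, the beta subunit of eIF2 (1.52-fold). Mitochondrial chaperones and proteases rose in 3 of 8 and 7 of 8 genes, and other branches of the ER stress response in 2 of 15 and 0 of 15. Without STAT3ko PD-1ko replicate 2, all lists lost their calls against STAT3ko in both subsets. The medians of amino acid synthesis, transport, and tRNA charging stayed at 0.43 to 0.92. This alternative was chosen after the data were seen and leaves a single library in the group. Calls over all genes also fell when a library was left out (counts under the dependence on processing), so the loss is not read as a result about these lists.

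Of 9 targets of NRF2, 2 rose against STAT3ko in CD4+ T cells, glutathione reductase Gsr (1.97-fold, adjusted p = 0.018) and the heme transporter Slc48a1 (1.57-fold, adjusted p = 0.048). In CD8+ T cells both rose as well (1.43-fold and 1.75-fold) and heme oxygenase Hmox1 fell (1.66-fold lower). Other targets of ATF4 and CHOP rose in 2 of 9 and 2 of 8 genes, Jdp2 among them (1.99-fold and 1.5-fold). Hypoxia-induced genes rose in 2 of 9 and 4 of 9, and glucocorticoid-induced genes in 0 of 5 and 0 of 5 by edgeR (Dusp1 and Tsc22d3 were called lower in CD4+ T cells with the replicate block). Among bZIP partners Nfe2l2 fell (1.84-fold and 1.89-fold lower), among p53 targets Trp53inp1 (1.88-fold and 2.02-fold lower), and among paralogs Sesn3 (2.55-fold and 1.74-fold lower). These calls too were lost without STAT3ko PD-1ko replicate 2, and the comparisons share the STAT3ko PD-1ko libraries with those against WT.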

How the data were processed

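RNA-Seq was done on 12 libraries of sorted donor T cells, 2 per group. According to the study's supplement, the authors aligned single-end reads to mm10 with STAR and summed them per RefSeq gene by HTSeq-count. The authors deposited raw counts per gene, with exon lengths, and the same libraries as RPKM, which were not used. The labels' growth protocol describes an adipogenic culture of a cell line, and their library kit differs from the supplement's (a stranded kit). The strand setting of the counting was not given in the sources used here.

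Counts were tested with edgeR 4.0.16 in R 4.3.3 (TMM scaling, filterByExpr with a minimum count of 10 and a minimum total of 15, quasi-likelihood F test, Benjamini-Hochberg adjustment over all tested genes, threshold 0.05). Genotypes were compared in a fit of each subset's 6 libraries (3 residual degrees of freedom). A fit of all 12 served for CD8 against CD4 and interactions (6 degrees). Replicates were compared over all 12 in a model with genotype, subset, and replicate number. The SE is the log2 fold change divided by the root of F, and 95% intervals use the t distribution of the fit. Within-replicate differences use log2 CPM with a prior count of 2. Precision is limited by 2 libraries per group. Alternatives were DESeq2 1.42.0, RLE scaling, other filters, a replicate block, fewer libraries in the fit, and leaving out each library. The code was tested on simulated data.

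Named genes were the 9 genes, Stat3, Pdcd1, up to 3 genes per list and genotype comparison with the largest change among called genes (mean log2 CPM 3 or more), and the 3 genes most like each tested member. Pck2 and Psat1, where outside this rule, Cebpb, and the genes of the replicate comparison were picked with their values in view. The 9 genes and all lists were chosen with earlier results of these data known. Sequences are from RefSeq. Of the 25078 rows, 26 carried names turned into dates by a spreadsheet.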

Additional observations from a re-analysis of the deposited data

Results flagged for a closer look

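For 3 of the genes, the genotype difference pointed one way in both subsets in replicate 1 and the other way in both subsets in replicate 2, so the replicates disagree in direction. Each value is the mean log2 difference over CD4+ and CD8+ T cells, replicate 2 minus replicate 1, and whether the replicates differ was not tested. For Ddit4 in STAT3ko PD-1ko against WT, the difference was 0.60 in replicate 1 and -0.55 in replicate 2, a shift of -1.15. Against STAT3ko it was 0.52 and -0.98, a shift of -1.5. For Trib3 the differences against WT were -0.26 and 0.47 (shift 0.73) and against STAT3ko -0.23 and 0.48 (shift 0.71), on 30 to 71 counts per library. For Atf5 against STAT3ko they were -0.07 and 0.08 (shift 0.15).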

How the results depend on the processing

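Precision was limited by 2 replicates per group, and every Asns call between genotypes was lost without the STAT3ko PD-1ko replicate 2 library of that subset. Leaving out 1 library changed the sign of 108 of 924 values of the 9 genes, 0 of them called, and other alternatives changed 3 of 577, 0 of them called. The cause of the changes below was not tested.

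Counts of all called genes moved as follows. For STAT3ko against WT in CD4+ T cells (40 genes), DESeq2 gave 271, no filter on low counts 165, the 4 compared libraries alone 1, and leaving out a library 1 to 49. In CD8+ T cells (7 genes), DESeq2 gave 210, no filter 66, at least 10 counts in every library 1, the 4 libraries alone 0, and leaving out a library 0 to 2. For STAT3ko PD-1ko against WT, leaving out a library gave 62 to 1947 in CD4+ (1538 genes) and 111 to 1908 in CD8+ T cells (2066). Against STAT3ko it gave 0 to 1212 in CD4+ (1324, and 2098 by DESeq2) and 2 to 1878 in CD8+ T cells (2017). For CD8 against CD4 the ranges were 611 to 1320 in WT (1294), 428 to 1135 in STAT3ko (1187), and 163 to 505 in STAT3ko PD-1ko (511). For replicate 2 against 1 (1733) the range was 703 to 1637, with 286 in the 6 CD4+ libraries and 42 in the 6 CD8+ libraries alone. For the subset difference (CD8 minus CD4), DESeq2 gave 5 for STAT3ko against WT, 76 for STAT3ko PD-1ko against WT (1 gene), and 19 against STAT3ko. No filter gave 50 and 9 for the latter pair, and leaving out a library 1 to 9 for the comparison with WT.

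Replicate numbers come from the titles, and 2 per group do not show whether they pair the genotypes. Deviations from the group means correlated at r = 0.06 to 0.65 over 15 pairs of groups. With the number as a replicate block, more genes were called in CD4+ T cells, where the main fit tested 11959. The block gave 303 for STAT3ko against WT (40 without it), 3104 for STAT3ko PD-1ko against WT (1538 without it), and 3105 against STAT3ko (1324 without it). For CD8 against CD4 the block gave 2014, 1909, and 939 genes in WT, STAT3ko, and STAT3ko PD-1ko, and 28 for the subset difference of STAT3ko PD-1ko against WT. A block by genotype and number gave 2991, 3077, and 1774 for CD8 against CD4 (1294, 1187, and 511 of 12334 genes in the main fit). It gave 84 and 22 for the subset differences of STAT3ko PD-1ko against WT and against STAT3ko.

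Of the 9 genes, 7 of them tested by genotype, 2 were called with the replicate block in STAT3ko PD-1ko against WT and against STAT3ko in both subsets. There Ddit3 joined Asns (against WT, log2 -1.13, adjusted p = 0.0124 in CD4+ and -1.66, adjusted p = 0.0065 in CD8+ T cells). The block also raised the calls over all genes in CD4+ T cells (counts above), so 2 of 7 is not read as a result about these genes as a group. In CD8+ T cells 2 were also called with no filter (against WT and against STAT3ko) and with the 4 libraries alone (against WT). Leaving out a library gave 0 to 2 against WT in CD8+ T cells and 0 to 1 in the other 3 of these comparisons. For CD8 against CD4 the block by genotype and number gave 2, 4, and 2 in WT, STAT3ko, and STAT3ko PD-1ko, a minimum of 10 counts gave 0 in WT, and leaving out a library 0 to 1 in WT and STAT3ko. In the 6 CD8+ libraries, 0 were called between replicates. Calls over all genes rose with the replicate block as well (counts above for CD4+ T cells), so the list counts that follow do not show a change of the lists alone. With the replicate block, the counts called higher against WT were, for amino acid synthesis, transport, tRNA charging, and mitochondrial chaperones, 7, 4, 8, and 4 in CD4+ (4, 3, 4, and 3 without it) and 7, 4, 11, and 7 in CD8+ T cells (7, 3, 9, and 6 without it). Against STAT3ko they were 6, 4, 8, and 4 in CD4+ (4, 4, 1, and 3 without it) and 6, 5, 10, and 7 in CD8+ T cells (4, 5, 6, and 7 without it), an alternative chosen after the data were seen. Other lists changed with it against STAT3ko in CD4+ T cells. Of 18 eIF2 genes, 5 were called higher and 1 lower (1 higher without it). Of 5 bZIP partners 2 were called lower (1 without it), and of 15 ER stress genes 3 higher and 1 lower (2 higher without it).

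Of the log2 values given in the report, the following uncalled ones changed sign when a library was left out, with these ranges. For STAT3ko against WT in CD4+ T cells: Atf4 -0.689 to 0.451, Atf5 -0.0615 to 0.0461, Ddit3 -1.02 to 0.853, Ddit4 -0.291 to 0.761, and Trib3 -0.218 to 0.217. In CD8+ T cells: Atf4 -0.593 to 0.457, Ddit3 -1.26 to 0.563, Ddit4 -0.0921 to 0.563, Sesn2 -0.382 to 0.261, and Trib3 -0.163 to 0.103. For STAT3ko PD-1ko against WT in CD4+ T cells: Atf4 -0.772 to 0.229, Atf5 -0.0906 to 0.18, Ddit4 -0.446 to 0.234, and Trib3 -0.142 to 0.291. In CD8+ T cells: Atf4 -0.847 to 0.142, Ddit4 -0.187 to 0.496, Sesn2 -0.444 to 0.127, and Trib3 -0.408 to 0.716. For CD8 against CD4: Ddit3 in WT -1.08 to 0.859 and in STAT3ko -1.26 to 0.52, Sesn2 in WT -0.46 to 0.0879, and Ddit4 in STAT3ko PD-1ko -0.673 to 0.0545. For replicate 2 against 1: Asns -0.104 to 0.179 and Trib3 -0.0135 to 0.287. In the 6 CD4+ libraries Asns was at 0.154 and Trib3 at -0.157, and in the 6 CD8+ libraries Atf5 was at -0.0586.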
